A study of Mus musculus with 43 samples.

Results

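The 7 keratin genes described here are Krt4, Krt7, Krt8, Krt18, Krt19, Krt20 and Krt23, chosen by symbol as keratins of simple and gastrointestinal epithelium. They are 7 of the 23951 gene rows of the bulk RNA-seq tables and 7 of the 54307 gene rows of the single-cell libraries, and each symbol was found in every table and library. Bulk RNA-seq was made from intestinal organoids of wild-type C57BL/6 mice, which are primary epithelial cultures grown from the intestine, in 6 groups of 3 libraries. Non-irradiated organoids were collected on day 7 (D7), and organoids given 4 Gy on day 4 were collected on D7 or on day 11 (D11). In each of these conditions, vehicle or 2 ng/mL of TGFB1, the cytokine transforming growth factor beta 1, was added on day 6 and left for 24 h. Single-cell RNA-seq was made from D8 organoids of the same strain that had also received 4 Gy on day 4, with 1 library for vehicle (24 h, called 0 h here) and 1 library each for 6, 15 and 24 h of 1 ng/mL TGFB1. It was also made from crypt cells of Mki67tm1.1Cle/J mice, a strain that carries a red fluorescent reporter on the proliferation protein Ki67. Ki67-RFP-positive cells were sorted from the proximal small intestine, giving 1 library from a non-irradiated littermate and 2 libraries taken 56 h after 12 Gy to the whole body. TGFB1 doses, irradiation doses and days differ between the bulk and the single-cell experiments, so their values are set side by side and are not compared.

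Keratins form the intermediate filaments of epithelial cells, and a filament is built from pairs of 1 type II and 1 type I protein. Krt4, Krt7 and Krt8 are type II keratins, and Krt18, Krt19, Krt20 and Krt23 are type I keratins. Krt8 with Krt18 and Krt19 makes the basic filament network of the intestinal epithelium, and Krt20 is known as a keratin of differentiated cells of the villus. Krt7 is better known from ductal and transitional epithelia, and Krt4 from the stratified epithelium of the oesophagus. TGFB1 binds a receptor kinase pair that phosphorylates SMAD proteins, which then bind DNA and change transcription.

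Total FPKM (fragments scaled to transcript length and to library size) per bulk library ran from 447728 to 621996. After filtering, 2932, 4283, 2890 and 2218 single cells remained for 0, 6, 15 and 24 h, and their median number of UMIs (unique molecular identifiers) was 8202, 6709, 7805 and 10441. The crypt libraries kept 1846 non-irradiated cells and 719 and 699 irradiated cells, with medians of 11969, 14399 and 13500 UMIs. At most 1 cell barcode was shared between any pair of libraries. The organoids carried the epithelial markers that their label implies, and the summed FPKM of 6 mesenchymal markers stayed at or below 0.623 and that of 4 endothelial markers at or below 0.308 in every bulk library. The 10 immune markers, of which 9 are in the tables and 2 or 3 of those were at 0 in every library of a group, summed to 5.97 to 23.7 FPKM. In whole organoids, fewer cells of a type and less RNA per cell cannot be told apart.

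Krt19, Krt8 and Krt18 were among the most abundant transcripts of vehicle-treated organoids. FPKM are per transcript length, so genes can be set beside each other. In non-irradiated D7 organoids with vehicle the order of mean FPKM was Krt19 (1596 ± 6.98, SD, n = 3), Krt8 (996 ± 23.2), Krt18 (865 ± 17.7), Krt7 (264 ± 6.36), Krt23 (84.3 ± 2.72), Krt20 (74.4 ± 6.05) and Krt4 (0.172 ± 0.0539), and no neighbours in that order overlapped between their 3 libraries. Ranked among all 23951 rows by group mean, Krt19 stood at 28, Krt8 at 58 and Krt18 at 69, while Krt4 stood at 12975. In irradiated D7 organoids with vehicle the order was the same except that Krt20 stood above Krt23. At D11 with vehicle Krt18 and Krt8 were not separable, with libraries of 1072 to 1317 and 1049 to 1342 FPKM, and neither were Krt23 (50.4 to 65.6) and Krt20 (37.9 to 65.0).

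**Figure D1:**
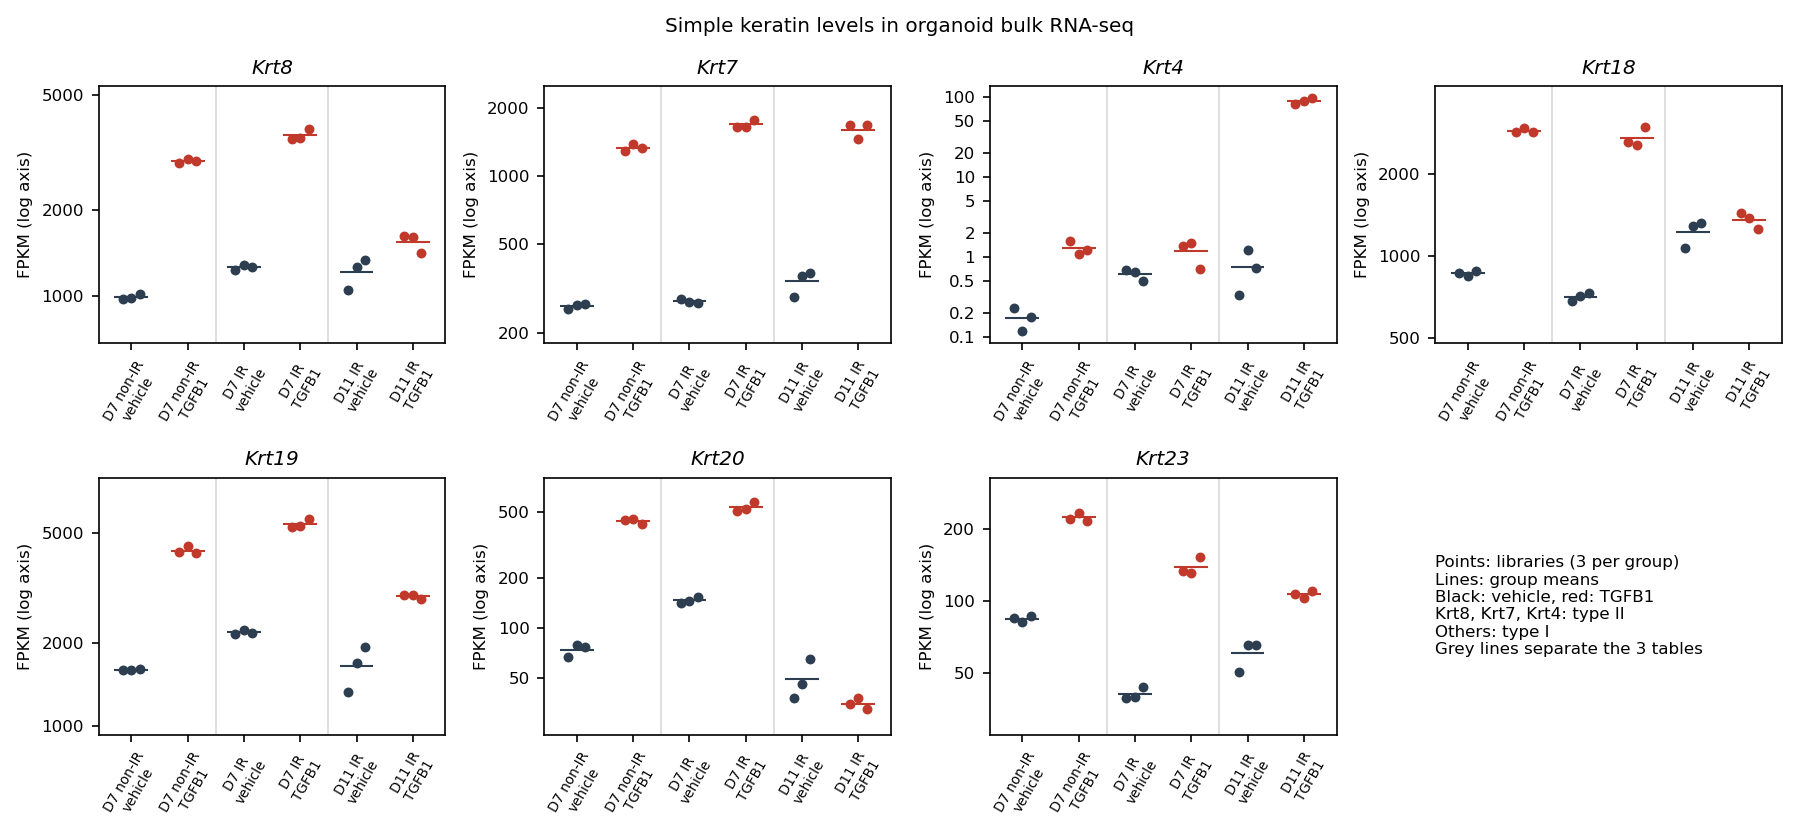
FPKM of the 7 keratins in each of the 18 bulk libraries, on a log axis, 3 libraries per group, with the group mean as a bar. TGFB1 libraries lie above vehicle libraries at D7 for every keratin, and at D11 Krt4 moves from at most 1.20 to at least 81.9 FPKM while Krt20 sits lowest of all groups.

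Between irradiated and non-irradiated and between D11 and D7 vehicle organoids, the levels of the members differed in different directions. The groups lie in separately normalized tables, so these are levels with no test, and irradiation or day cannot be told apart from the table. In irradiated against non-irradiated D7 vehicle organoids, Krt20 read 143, 146 and 155 against 67.5, 78.8 and 76.8 FPKM, a mean 1.99 times as high. Krt23, a type I keratin of gastrointestinal and other epithelia, went the other way, at 39.2, 39.5 and 43.7 against 84.6, 81.5 and 86.9 FPKM, a mean 2.07 times lower. Krt4 stayed under 1 FPKM in both groups, with means of 0.608 against 0.172 FPKM, 3.52 times as high. Krt19 was 1.37 times, Krt8 1.27 times and Krt7 1.05 times as high, and Krt18 was 1.22 times lower. None of the 7 members overlapped between the groups, and neither did 85.0% of all genes. In D11 against D7 irradiated vehicle organoids, Krt20 read 37.9, 46.2 and 65.0 against 143, 146 and 155 FPKM, a mean 2.98 times lower. Krt18 was 1.73 times, Krt23 1.48 times and Krt7 1.23 times as high at D11, and Krt19 was 1.33 times lower. Krt8 and Krt4 overlapped between the days, and the other 5 of 7 members did not, against 66.9% of all genes. Both counts lie near the shares of all genes and are not particular to the members.

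Exposure to TGFB1 for 24 h raised 6 of the 7 members at D7, with and without irradiation, by at least 2-fold each, and the seventh, Krt4, was too low for the test. The test was limma on log2(FPKM + 1) for genes that averaged 1 FPKM or more over the 6 libraries of a table, and a gene is called at a Benjamini-Hochberg adjusted p under 0.05 over all genes tested. Among all genes tested in non-irradiated organoids 33.3% were called higher, and 5.52% were called higher and at least 2-fold. In irradiated D7 organoids these shares were 35.8% and 7.79%. At D11, 5 days after TGFB1 was added, 4 of 7 members were called higher and 1 lower, against backgrounds of 32.3% higher and 31.6% lower, and 2 of 7, Krt4 and Krt7, were higher by at least 2-fold against 5.67% of all genes. Krt4 passed the filter at D11 only through its TGFB1 libraries, so its direction was set by passing. Beside these changes, the 8 regenerative markers (such as Clu and Anxa1) summed to 321 to 346 FPKM with vehicle and 2768 to 2877 with TGFB1 in non-irradiated organoids, to 292 to 323 and 4548 to 4933 in irradiated D7 organoids, and to 209 to 254 and 4560 to 5430 at D11. The 8 mitotic markers summed to 603 to 614 and 301 to 313, to 725 to 728 and 167 to 205, and to 649 to 721 and 661 to 770 FPKM. The part of such cells in the keratin levels was not tested.

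**Figure D2:**
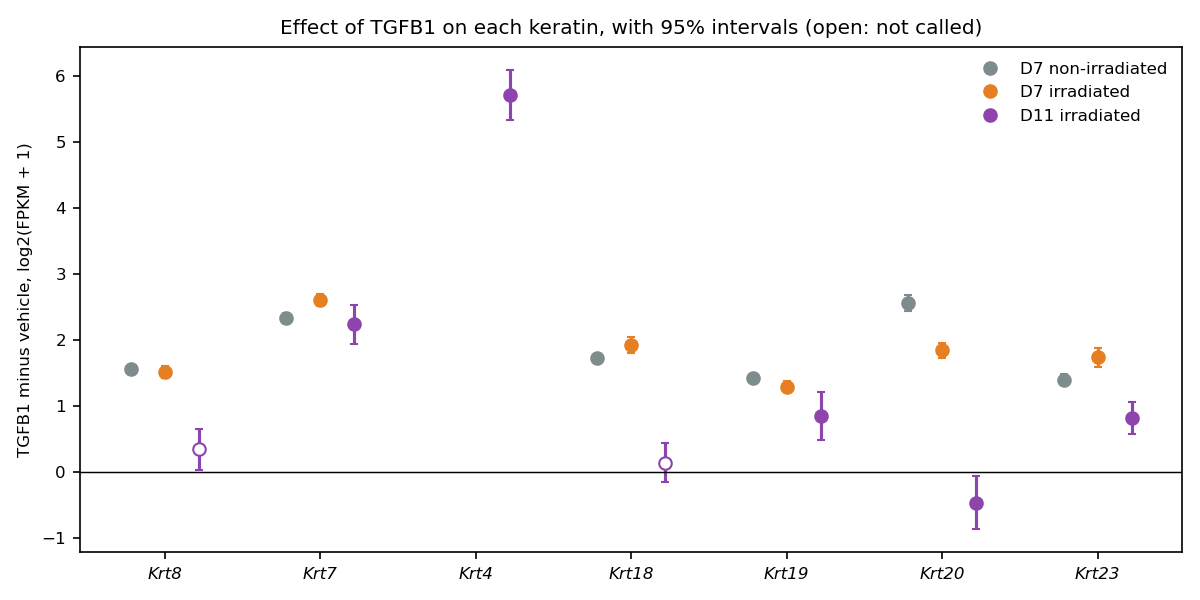
Change with TGFB1 on the log2(FPKM + 1) scale for each keratin in the 3 conditions, as the limma estimate with its 95% confidence interval; filled points were called and open points were not. Krt7 stays between 2.24 and 2.61 in all 3, while Krt18 runs from 1.93 in irradiated D7 organoids to 0.15 at D11 and Krt20 from 2.56 in non-irradiated organoids to -0.46 at D11.

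Krt8, the main type II keratin of simple epithelia, was measured at 981, 985 and 1023 FPKM with vehicle and 2914, 2996 and 2948 FPKM with TGFB1 in non-irradiated D7 organoids. In irradiated D7 organoids it was 1240, 1283 and 1266 FPKM with vehicle and 3517, 3552 and 3800 FPKM with TGFB1. The groups were far apart on D7, with means 2.96 times and 2.87 times as high with TGFB1. On the log2 scale these are changes of 1.57 ± 0.0278 (SE, limma, Benjamini-Hochberg adjusted p = 1.38e-11) and 1.52 ± 0.0400 (adjusted p = 3.78e-10). At D11 Krt8 was 1049, 1267 and 1342 FPKM with vehicle and 1625, 1602 and 1412 FPKM with TGFB1. The D11 libraries did not overlap, but the change of 0.35 (95% interval 0.03 to 0.66) missed the threshold of limma's test with a Benjamini-Hochberg adjusted p of 0.0527. It was called with quantile normalization (0.55, limma adjusted p = 0.000112), with all 18 libraries in 1 fit (limma adjusted p = 0.000849) and without vehicle replicate 3 (limma adjusted p = 0.0465).

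Krt18, the usual type I partner of Krt8, rose from 870, 845 and 880 to 2830, 2936 and 2849 FPKM in non-irradiated organoids and from 685, 714 and 730 to 2616, 2536 and 2958 FPKM in irradiated D7 organoids. The means were 3.32 times and 3.81 times as high with TGFB1, with limma changes of 1.73 ± 0.0282 (Benjamini-Hochberg adjusted p = 7.94e-12) and 1.93 ± 0.0561 (adjusted p = 7.57e-10) on the log2 scale. At D11 it was 1072, 1292 and 1317 FPKM with vehicle and 1434, 1382 and 1258 FPKM with TGFB1. These D11 groups overlapped, and the change of 0.15 (95% interval -0.15 to 0.45) was not called by limma (Benjamini-Hochberg adjusted p = 0.351). With quantile normalization it was called at 0.35 (limma adjusted p = 0.00144).

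The start regions of Krt8, Krt18, Krt7 and Krt20, which all rose with TGFB1 at D7, are shown here with short SMAD, TEAD, AP-1 and TATA elements. Whether any element goes with a response was not tested. RefSeq promoters (build GRCm38.p6) were found for 5 of the 7 members, and the 250 bases before the start are printed 5′ to 3′ on the gene's strand. Capitals mark matches on either strand. The SMAD element CAGAC was found in 42.2% of all 32851 promoters of this length in the same table. The TEAD element GGAATG was found in 12.6% of them. The AP-1 element TGANTCA was found in 6.75% of them. The TATA element TATAAA was found in 12.4% of them.
Krt8 promoter (chr15:102004343-102004592, minus strand): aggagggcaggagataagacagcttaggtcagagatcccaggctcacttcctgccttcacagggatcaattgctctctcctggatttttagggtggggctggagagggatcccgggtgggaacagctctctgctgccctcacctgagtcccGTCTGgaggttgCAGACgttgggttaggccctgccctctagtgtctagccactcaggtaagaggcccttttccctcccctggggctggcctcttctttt
Krt18 promoter (chr15:102027966-102028215, plus strand): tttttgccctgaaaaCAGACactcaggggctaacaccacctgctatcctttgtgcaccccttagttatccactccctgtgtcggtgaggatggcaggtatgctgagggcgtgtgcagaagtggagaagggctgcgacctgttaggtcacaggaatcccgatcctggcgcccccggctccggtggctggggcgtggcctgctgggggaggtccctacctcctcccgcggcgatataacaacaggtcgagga
Krt7 promoter (chr15:101412153-101412402, plus strand): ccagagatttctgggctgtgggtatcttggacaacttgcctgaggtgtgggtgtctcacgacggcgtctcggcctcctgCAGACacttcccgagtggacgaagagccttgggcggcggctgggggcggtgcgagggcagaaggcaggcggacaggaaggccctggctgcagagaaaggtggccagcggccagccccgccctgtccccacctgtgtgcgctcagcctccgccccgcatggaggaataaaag
Krt20 promoter (chr11:99438154-99438403, minus strand): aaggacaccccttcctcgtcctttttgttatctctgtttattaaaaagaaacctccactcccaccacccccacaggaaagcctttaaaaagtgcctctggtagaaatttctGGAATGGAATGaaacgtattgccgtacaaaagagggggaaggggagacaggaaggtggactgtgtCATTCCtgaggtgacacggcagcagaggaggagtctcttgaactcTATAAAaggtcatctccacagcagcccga

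Krt8 held 2 CAGAC matches, 99 and 87 bases before the start, and Krt18 and Krt7 held 1 each, 235 and 171 bases before it. Krt23, not printed, also held 1. Krt20 held no CAGAC match in this window but 3 GGAATG matches, 139, 134 and 74 bases before the start, the first 2 of them overlapping by 1 base, and 1 TATAAA match 29 bases before it. No TGANTCA match was found in any of the 5. A match is a run of letters and not a measured binding site.

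Krt7, a type II keratin of ducts and of transitional epithelium, had the largest TGFB1 rise of the members in irradiated D7 organoids and kept most of it to D11. It was 257, 265 and 269 FPKM with vehicle and 1290, 1381 and 1335 FPKM with TGFB1 in non-irradiated organoids. In irradiated D7 organoids it went from 282, 275 and 273 to 1649, 1655 and 1776 FPKM, and at D11 from 290, 358 and 370 to 1676, 1462 and 1677 FPKM. No vehicle library reached the lowest TGFB1 library in any condition, and the TGFB1 libraries of D7 and D11 irradiated organoids overlapped. The means were 5.07, 6.12 and 4.73 times as high with TGFB1. The limma changes were 2.34 ± 0.0333 (Benjamini-Hochberg adjusted p = 3.56e-12), 2.61 ± 0.0394 (adjusted p = 1.45e-11) and 2.24 ± 0.131 (adjusted p = 6.13e-07). Among all rows Krt7 moved from rank 290 to 42, from 302 to 40, and from 197 to 19.

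Krt19, a small type I keratin that lacks the usual tail domain, was the most abundant member in all 6 groups. It was 1593, 1591 and 1604 FPKM with vehicle and 4238, 4465 and 4205 FPKM with TGFB1 in non-irradiated organoids. The irradiated D7 values were 2157, 2221 and 2168 FPKM with vehicle and 5244, 5286 and 5595 FPKM with TGFB1. At D11 they were 1325, 1681 and 1926 FPKM with vehicle and 2976, 2985 and 2880 FPKM with TGFB1. The vehicle libraries at D11 spread more widely than in the other conditions and still lay below every TGFB1 library. The means were 2.70, 2.46 and 1.79 times as high, and the limma changes were 1.43 ± 0.0291 (Benjamini-Hochberg adjusted p = 2.7e-11), 1.30 ± 0.0382 (adjusted p = 6.78e-10) and 0.86 ± 0.162 (adjusted p = 0.00117). With quantile normalization the irradiated D7 change was smaller, at 0.77 (limma adjusted p = 0.00195). With TGFB1 Krt19 ranked 3, 4 and 5 among all rows.

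Krt20 was the member whose response changed direction between the days. It was 67.5, 78.8 and 76.8 FPKM with vehicle and 450, 454 and 424 FPKM with TGFB1 in non-irradiated organoids. In irradiated D7 organoids it was 143, 146 and 155 FPKM with vehicle and 509, 527 and 574 FPKM with TGFB1. The means were 5.95 times and 3.62 times as high, with limma changes of 2.56 ± 0.0551 (Benjamini-Hochberg adjusted p = 1e-10) and 1.85 ± 0.0502 (adjusted p = 4.44e-10). At D11 Krt20 was 37.9, 46.2 and 65.0 FPKM with vehicle and 34.9, 37.8 and 32.5 FPKM with TGFB1. The D11 groups just failed to overlap, and the mean was 1.42 times lower with TGFB1, a limma change of -0.46 ± 0.175 (Benjamini-Hochberg adjusted p = 0.0482). That D11 call was lost without vehicle replicate 2 or 3 or without any 1 of the TGFB1 replicates (limma adjusted p = 0.0633 to 0.131), with median-ratio scaling (0.0502) and with no filter on low genes (0.0768). Without vehicle replicate 3 the change was -0.25.

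The markers of differentiated enterocytes moved beside Krt20 in part. The 11 enterocyte markers summed to 3507 to 3667 FPKM with vehicle and 1615 to 1752 with TGFB1 in non-irradiated organoids, where Krt20 rose. In irradiated D7 organoids they summed to 14566 to 15534 with vehicle and 21608 to 22484 with TGFB1, and at D11 to 3515 to 6180 and 2300 to 2714. The 5 villus tip markers summed to 69.3 to 74.1 and 158 to 177 FPKM in non-irradiated organoids. They summed to 170 to 180 and 630 to 673 in irradiated D7 organoids, and to 59.0 to 113 and 48.7 to 55.6 at D11. The villus tip sum thus moved the same way as Krt20 in all 3 conditions, and the enterocyte sum did not in non-irradiated organoids. Their part in the Krt20 result was not tested.

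Krt23 was 84.6, 81.5 and 86.9 FPKM with vehicle and 222, 234 and 218 FPKM with TGFB1 in non-irradiated organoids. It was 39.2, 39.5 and 43.7 against 134, 131 and 153 FPKM in irradiated D7 organoids, and 50.4, 65.6 and 65.3 against 107, 104 and 110 FPKM at D11. The vehicle and TGFB1 libraries were apart in every condition, with means 2.66, 3.41 and 1.77 times as high with TGFB1. The limma changes were 1.40 ± 0.0374 (Benjamini-Hochberg adjusted p = 1.84e-10), 1.74 ± 0.0642 (adjusted p = 5.55e-09) and 0.82 ± 0.106 (adjusted p = 0.000101).

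Krt4, the type II keratin of oesophageal and other stratified epithelium, was near the lower limit at D7 and appeared at D11 with TGFB1. At D11 it was 0.332, 1.20 and 0.719 FPKM with vehicle and 81.9, 89.1 and 96.8 FPKM with TGFB1. The means differed 119-fold, and the limma change on the log2(FPKM + 1) scale was 5.71 ± 0.165 (Benjamini-Hochberg adjusted p = 4.28e-08). Krt4 passed the filter of 1 FPKM at D11 only through its TGFB1 libraries, so the direction of this change was set by passing. Its rank among all rows moved from 11682 to 957. At D7 it was 0.117 to 0.225 FPKM with vehicle and 1.09 to 1.55 with TGFB1 in non-irradiated organoids, and 0.497 to 0.683 against 0.699 to 1.50 in irradiated organoids. The D7 groups did not overlap, but Krt4 stayed under the filter of 1 FPKM in both fits. Without that filter limma gave changes of 0.96 (Benjamini-Hochberg adjusted p = 6.93e-05) and 0.42 (adjusted p = 0.0442). A list of 9 squamous markers summed to 137 to 246 FPKM with vehicle and 831 to 899 with TGFB1 at D11. In each D11 group 2 of the 9 were at 0 in every library, as were 3 with vehicle and 2 with TGFB1 in irradiated D7 organoids. Anxa8 and Ly6d, both on the list, also led the regenerative-like cell cluster described below, so the sum is not particular to squamous cells. The 9 markers summed to 253 to 270 and 1442 to 1590 FPKM in irradiated D7 organoids, where Krt4 stayed at or below 1.50 FPKM. Their part in the Krt4 result was not tested.

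The mix of keratins shifted with TGFB1 as well as their total. The 7 members made up 0.722 to 0.747% of all FPKM with vehicle and 2.16 to 2.25% with TGFB1 in non-irradiated organoids. The shares were 0.817 to 0.831% and 2.24 to 2.39% in irradiated D7 organoids, and 0.813 to 0.958% and 1.62 to 1.71% at D11. The ratio of Krt7 to Krt8 rose with TGFB1 in every condition, from 0.262 to 0.269 up to 0.443 to 0.461 in non-irradiated organoids, from 0.214 to 0.227 up to 0.466 to 0.469 in irradiated D7 organoids, and from 0.276 to 0.283 up to 0.913 to 1.19 at D11. At D11 with TGFB1, Krt7 (1462 to 1677 FPKM) and Krt8 (1412 to 1625 FPKM) could not be separated. The ratio of Krt8 to Krt18 moved from 1.13 to 1.16 down to 1.02 to 1.03 in non-irradiated organoids and from 1.73 to 1.81 down to 1.28 to 1.40 in irradiated D7 organoids, but from 0.979 to 1.02 up to 1.12 to 1.16 at D11. Summed type II over summed type I members went from 0.474 to 0.488 up to 0.541 to 0.557, from 0.497 to 0.503 up to 0.601 to 0.614, and from 0.508 to 0.539 up to 0.700 to 0.744 in the same order of conditions. In each of these ratios the vehicle and TGFB1 libraries did not overlap.

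**Figure D3:**
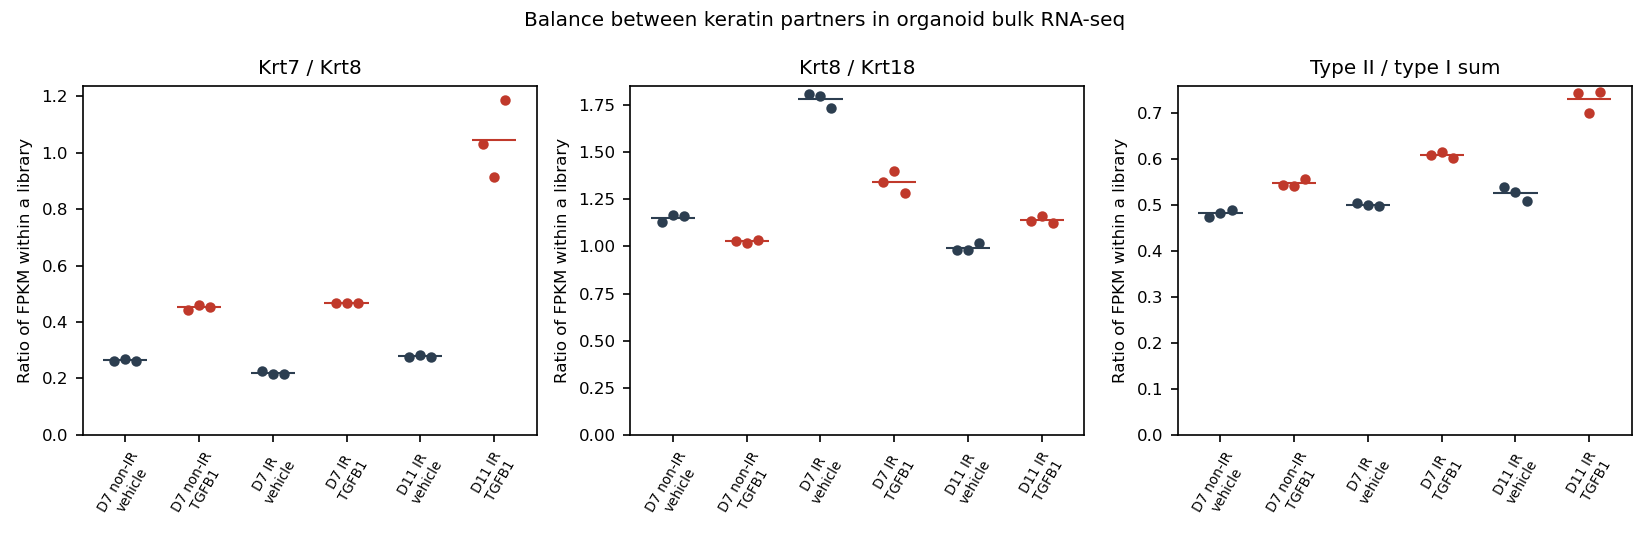
Ratios of keratin FPKM in each of the 18 bulk libraries: Krt7 to Krt8, Krt8 to Krt18, and summed type II to summed type I members. The Krt7 to Krt8 ratio reaches 0.913 to 1.19 in the D11 libraries with TGFB1, and the Krt8 to Krt18 ratio is highest in irradiated D7 libraries with vehicle (1.73 to 1.81).

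Whether irradiation changed the TGFB1 response at D7 was tested as an interaction in limma over the 12 D7 libraries. It was called for 5 of the 6 members tested, against 53.1% of all genes, and for none at a difference of at least 2-fold, against 4.38%. The largest was Krt20, whose response was smaller after irradiation by 0.71 on the log2 scale (-0.71 ± 0.0821, limma, Benjamini-Hochberg adjusted p = 6.19e-06). The responses of Krt23 (0.34, adjusted p = 0.00259) and Krt7 (0.27, adjusted p = 0.000497) were larger after irradiation in limma with Benjamini-Hochberg adjustment. Krt18 was larger by 0.20 (limma adjusted p = 0.0246), but its sign turned to -0.10 (adjusted p = 0.118) with quantile normalization. Krt19 was smaller, at -0.13 (limma adjusted p = 0.0295), or -0.75 (adjusted p = 0.000255) with quantile normalization, and Krt8 was not called, at -0.05 (95% interval -0.15 to 0.05, limma adjusted p = 0.426). Krt7 was not called with quantile normalization (0.10, limma adjusted p = 0.112), under which Krt8 was (-0.28, adjusted p = 0.000231). In a single fit of all 18 libraries only Krt20 and Krt23 of these members were called. The Krt18 call was lost without irradiated vehicle replicate 1, non-irradiated vehicle replicate 3 or non-irradiated TGFB1 replicate 1 (limma adjusted p = 0.0533 to 0.0593), and without irradiated TGFB1 replicate 3 its value was 0.13. The Krt19 call was lost with median-ratio scaling (limma adjusted p = 0.0576). It was also lost without irradiated vehicle replicate 2, irradiated TGFB1 replicate 1 or 2, non-irradiated vehicle replicate 1 or 2 or non-irradiated TGFB1 replicate 2 (limma adjusted p = 0.0513 to 0.0829).

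The day of collection changed the TGFB1 response of all 7 members in the same test over the 12 irradiated libraries, against 64.5% of all genes, and by at least 2-fold for 4 of 7, against 16.4%. The response of Krt4 was larger at D11 by 5.29 ± 0.239 (limma, Benjamini-Hochberg adjusted p = 1.6e-09). Krt4 passed the filter of this fit only through its D11 libraries with TGFB1. Its direction was thus set by passing, and it adds nothing to these counts. Without it, 6 of 6 members were called, and 3 of 6 by at least 2-fold. The other 6 responses were smaller. They were smaller by at least 2-fold for Krt20 (-2.31, limma adjusted p = 7.05e-07), Krt18 (-1.78, adjusted p = 1.29e-07) and Krt8 (-1.17, adjusted p = 7.59e-06). Krt23 followed at -0.92 (limma adjusted p = 3.47e-05), Krt19 at -0.44 (adjusted p = 0.0319) and Krt7 at -0.37 (adjusted p = 0.0282). With quantile normalization the last 2 changed sign and were not called, Krt19 at 0.24 (limma adjusted p = 0.219) and Krt7 at 0.13 (adjusted p = 0.263), and Krt8 and Krt18 were smaller by -0.55 and -1.18. The Krt7 call was lost without D11 vehicle replicate 2 or 3, D11 TGFB1 replicate 2, D7 vehicle replicate 2 or 3 or D7 TGFB1 replicate 3 (limma adjusted p = 0.0569 to 0.0717). The Krt19 call was kept in 3 of the 12 fits that left out 1 library, those without D11 vehicle replicate 1, D11 TGFB1 replicate 2 or D7 TGFB1 replicate 1, and the others gave limma adjusted p = 0.0526 to 0.0721. In levels under TGFB1, D11 stood 15.3 times lower than D7 for Krt20, 2.34 times lower for Krt8 and 1.99 times lower for Krt18, and 75.3 times higher for Krt4, between tables and with no test.

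Only 6 of the other 45 keratin genes passed the filter of 1 FPKM in any table, and none of the 6 exceeded 14.8 FPKM in any library. Krt14, the type I keratin of basal cells of stratified epithelium, was at most 0.176 FPKM with vehicle and 3.73 to 5.36 with TGFB1 at D11, and 0.0745 to 0.145 against 9.96 to 12.6 in irradiated D7 organoids. Its limma changes were 1.84, 3.51 and 2.33 in non-irradiated D7, irradiated D7 and irradiated D11 organoids. Krt80 rose in the same 3 conditions by 1.23, 1.78 and 2.17, and Krt79 by 2.82 in irradiated D7 organoids and 2.76 at D11. Krt83 was called higher at D7 (0.91 and 0.68) and not at D11 (-0.17, limma Benjamini-Hochberg adjusted p = 0.379). Krt15, another basal keratin, fell by 0.89 in irradiated D7 organoids, and Krt10 was tested at D11 alone and not called (-0.20, limma adjusted p = 0.167). In all, 3 of 3, 4 of 5 and 3 of 5 other keratins tested were called higher, against 33.3%, 35.8% and 32.3% of all genes. These counts support nothing about the family: Krt14 in all 3 tables and Krt79 in the irradiated ones passed the filter only through their TGFB1 libraries and Krt15 only through its vehicle libraries, so their directions were set by passing it.

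The proteins that anchor keratin filaments to cell contacts were described as lists. Over all genes 33.3%, 35.8% and 32.3% were called higher and 34.9%, 39.7% and 31.6% lower in non-irradiated D7, irradiated D7 and D11 organoids. Of 9 desmosome genes, 9, 9 and 8 were called higher and none lower in these 3 conditions, with median changes of 0.80, 0.98 and 0.58, where the medians over all genes were -0.02, -0.03 and 0.01. The largest rises were Pkp1 (2.10 and, at D11, 1.23), a plakophilin of the desmosomal plaque, and Jup (1.29 in irradiated D7 organoids), the plakoglobin that links desmosomal cadherins to it. Of 9 hemidesmosome and plakin genes 8, 8 and 5 were called higher and 1, 0 and 1 lower, with medians of 0.64, 1.00 and 0.19. Plec, which ties keratins to hemidesmosomes, led at D7 with 1.65 and 1.56, and Ppl, periplakin, led at D11 with 1.54. Eppk1, epiplakin, was called lower in non-irradiated organoids (-0.83) and at D11 (-0.92). Among other intermediate filament genes 2 of 4, 1 of 4 and 3 of 6 tested were higher and 1, 2 and 2 lower, which are counts of few genes beside those shares, with medians of 0.06, -0.29 and 0.11. Lmna, which encodes the nuclear lamins A and C, led at D7 (1.01 and 1.30) and Nes, nestin, at D11 (1.08), while Lmnb2 fell most at D7 (-0.11 and -0.83) and Vim, vimentin, fell most at D11 (-1.34).

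Over the 18 bulk libraries the members shared a pattern to different degrees. Pearson's r of log2(FPKM + 1) was 0.968 between Krt8 and Krt19 and 0.928 between Krt8 and Krt18, and -0.452 between Krt4 and Krt20. These libraries share 3 conditions and 2 treatments, so r describes the groups and carries no test. Among 11473 genes, the 3 with the highest r were Rdh10 (0.992), Ehd2 (0.991) and Elk3 (0.990) for Krt7, and Dynap (0.984), Dact3 (0.979) and Efhd2 (0.979) for Krt8. For Krt18 they were Paqr5 (0.981), Gprc5a (0.975) and Ldlrad4 (0.972), and for Krt19 Cap1 (0.986), Plek2 (0.985) and Rcan1 (0.984). For Krt20 they were Chmp1a (0.986), Ret (0.981) and Sytl3 (0.967), for Krt23 S100a14 (0.990), Hbegf (0.987) and Rap2b (0.987), and for Krt4 Ripply3 (0.980), Efemp1 (0.976) and Wnt7b (0.975). Krt4 was high in the D11 libraries with TGFB1 alone, so its r values rest on that group.

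In single cells the keratins other than Krt4 followed different time courses after TGFB1. With 1 library per time there is no test, and the values are CPM (the summed UMIs of kept cells, scaled to the same total in each library), with exact Poisson 95% intervals that cover counting error only. Krt7 rose at each time, from 93.5 CPM (89.9 to 97.2) at 0 h to 194 (190 to 199) at 6 h, 366 (359 to 373) at 15 h and 561 (553 to 570) at 24 h. Krt20 was at 160 (155 to 165), 427 (420 to 434), 453 (445 to 461) and 440 (433 to 448) CPM. Krt7 was still climbing between 15 and 24 h, whereas Krt20 had come to its level by 6 h. Krt18 went 471, 579, 955 and 1293 CPM, Krt8 1764, 2498, 3267 and 3653 CPM, and Krt19 1442, 1685, 2397 and 2749 CPM. Krt23 first fell and then rose, at 41.7 (39.3 to 44.2), 26.0 (24.3 to 27.8), 64.7 (61.7 to 67.9) and 103 (99.6 to 107) CPM. Krt4 had 4, 1, 7 and 5 UMIs in the 4 libraries, too few for a fold. The pseudogene Krt8-ps, which could share reads with Krt8, had 0 UMIs in all 7 single-cell libraries.

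Against 0 h, Krt7 and Krt20 (2 of 7) were at least 2-fold higher with intervals apart at 6 h, where 1.01% of genes with a mean of at least 10 CPM were. At 15 h Krt18 joined them, against 2.21%, and at 24 h 5 of 7 members were, against 4.44%. The 24 h values were 6.00 times the 0 h value for Krt7, 2.75 times for both Krt18 and Krt20, 2.47 times for Krt23, 2.07 times for Krt8 and 1.91 times for Krt19. The 7 members together made up 0.397, 0.541, 0.750 and 0.880% of all UMIs. The UMI ratio of Krt7 to Krt8 climbed through 0.0530, 0.0778, 0.112 and 0.154, and that of Krt8 to Krt18 was 3.75, 4.31, 3.42 and 2.83. Beside these, the 8 regenerative markers (such as Clu and Anxa1, genes of damaged intestinal epithelium) summed to 44.1, 101, 455 and 1072 CPM and the 5 villus tip markers to 235, 379, 614 and 501 CPM. The 9 squamous markers, of which 4 or 5 had UMIs, summed to 105, 206, 311 and 473 CPM, the 8 Paneth markers to 585, 643, 805 and 1148 CPM and the 9 enteroendocrine markers to 27.3, 23.0, 54.7 and 164 CPM. The 8 mitotic markers summed to 686, 814, 497 and 380 CPM. The part of these cell types in the keratin values was not tested.

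**Figure D4:**
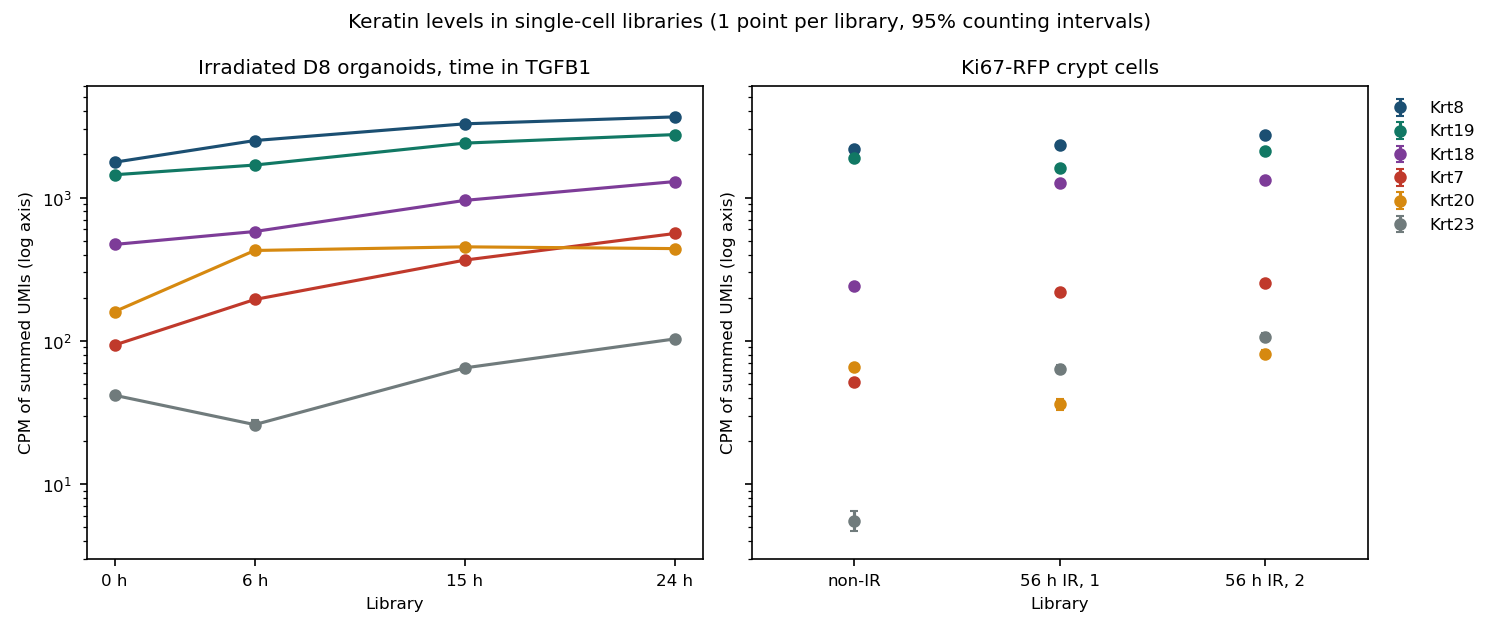
CPM of each keratin in the 4 organoid libraries by hours of TGFB1 and in the 3 crypt libraries, on a log axis, with exact Poisson 95% intervals of the counts. Krt7 climbs at every time and Krt20 is flat after 6 h, and in crypt cells Krt18, Krt7 and Krt23 are higher in both irradiated libraries.

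Shares of cells with at least 1 UMI were taken after each cell was thinned to 2000 UMIs, with Clopper-Pearson 95% intervals. Krt7 was found in 14.3% (13.0 to 15.6) of cells at 0 h, then 26.8%, 36.7% and 47.1% (45.0 to 49.2), and before thinning in 41.8, 56.3, 70.7 and 81.7%. Krt18 was found in 49.8, 54.0, 66.7 and 74.8% of thinned cells and Krt20 in 23.2, 39.4, 41.6 and 44.4%. Krt8 (91.8 to 96.9%) and Krt19 (86.5 to 94.4%) were in nearly every cell at every time. Krt23 was found in 7.95, 5.21, 8.06 and 13.5%. Krt4 was found in 0 of the thinned cells at 0 h and 6 h, with upper limits of 0.126 and 0.0862% on the share of cells with a UMI, which are not limits on cells that express it. Free RNA can give UMIs in cells that do not express a gene, and its part in these shares was not tested. At 0 h Krt20 was in 3.59% (2.10 to 5.68) of the cells of a mitotic-like cluster with a median of 10341 UMIs over all times. At 0 h Krt7 was in 5.20% (2.87 to 8.58) of the 269 cells of an enterocyte-like cluster with a median of 7085 UMIs over all times. It was in 34.6% (25.6 to 44.6) of villus tip-like cells. That enterocyte-like cluster was the largest over all times, but at 0 h another one held 834 cells. In CPM, Krt7 at 0 h, among clusters with at least 20 cells, ran from 21.5 (15.6 to 28.9) in the enterocyte-like cluster of 269 cells to 328 (294 to 365) in the villus tip-like one. Its 0 h level thus differed between clusters with intervals apart.

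The organoid cells were grouped into 13 clusters by genes other than keratins, and the members differed widely between them. Clusters are named from marker lists, no doublet caller was run, and the values are descriptions. A regenerative-like cluster of 421 cells, led by Anxa8, Anxa1, Cwh43 and Ly6d, had the highest CPM of 5 members: Krt8 at 8491, Krt19 at 5807, Krt18 at 2971, Krt7 at 1601 and Krt23 at 328. It also had the highest median depth, at 13907 UMIs per cell. Most of its cells came from the later times, with 7, 34, 133 and 247 cells at 0, 6, 15 and 24 h. Krt20 was highest in a villus tip-like cluster of 432 cells, at 2297 CPM, led by Ada, Clca4a and Pnliprp2. These levels are pooled over times that contribute different numbers of cells. Among clusters with at least 20 cells at a time, the regenerative-like one was at 6, 15 and 24 h also the highest for those 5 members, and at each of the 4 times the villus tip-like cluster was for Krt20. Krt7 and Krt18 were lowest in enterocyte-like clusters at every time, but in which of the 3 depended on the time. At 0 h the one largest over all times, with 269 cells at 0 h, had 21.5 CPM of Krt7 and 114 (99.4 to 129) of Krt18. The one with the most cells at 0 h, 834, had 39.9 and 144 (135 to 153). At 15 h the Krt18 levels of these 2 clusters were 212 (200 to 226) and 188 (170 to 207) CPM, with overlapping intervals. Pooled over times, Krt20 was at 16.9 CPM in a mitotic-like cluster. When keratins were kept among the clustering genes, the highest cluster for Krt20 was a regenerative-like one, at 1253 CPM.

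**Figure D5:**
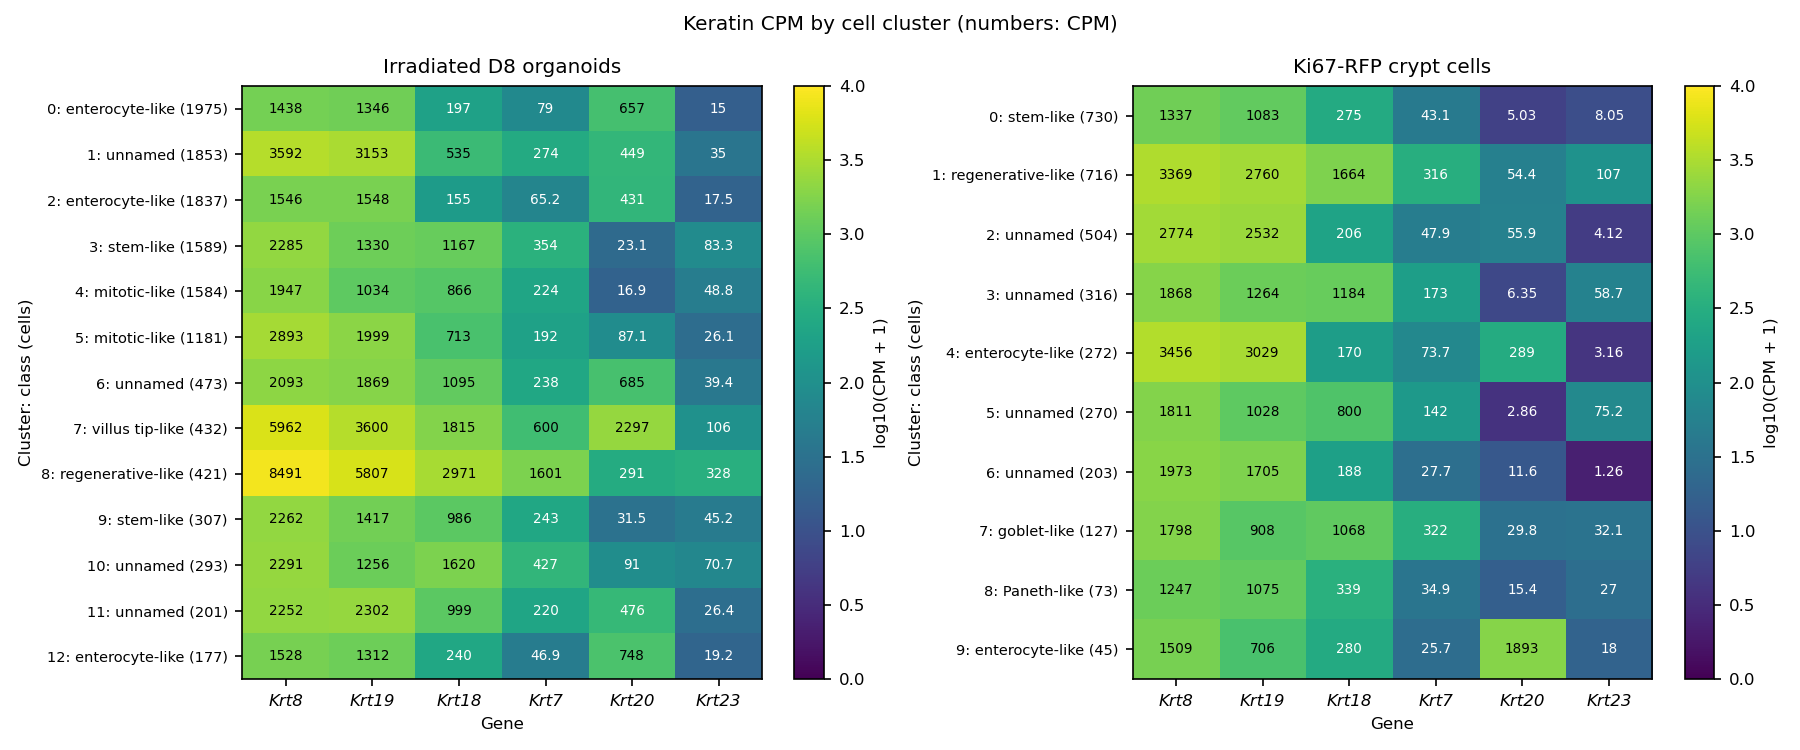
CPM of 6 keratins in the cell clusters of the organoid and the crypt libraries, named from their marker lists. Krt8, Krt18, Krt19, Krt7 and Krt23 peak in the regenerative-like organoid cluster and Krt20 in the villus tip-like one, at 2297 CPM.

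Within clusters the levels were also higher at 24 h for most members. The clusters share 1 library per time and are not replicates, and the share of all genes meeting this rule was not taken. In the 9 clusters with at least 20 cells at both 0 and 24 h, Krt7 was higher at 24 h with intervals apart in 9 of 9, by 2.49 to 6.74 times. Krt18 was higher in 9 of 9 (1.46 to 3.24 times), Krt20 in 9 of 9 (1.38 to 5.81 times) and Krt8 in 9 of 9 (1.26 to 1.92 times). The 9 include unnamed clusters and a mitotic-like one where Krt20 went from 8.62 to 24.0 CPM. The part of free RNA in such low levels was not tested. Krt19 was higher in 8 of 9 and Krt23 in 4 of 9. At 6 h, over 11 clusters, Krt20 was higher in 10 and by at least 2-fold in 8, while Krt23 was higher in none and lower in 5. In the stem-like cluster Krt7 climbed through 133, 230, 359 and 538 CPM at 0, 6, 15 and 24 h. In the villus tip-like cluster Krt20 went 976, 3087, 2742 and 2326 CPM. In the regenerative-like cluster, which had too few cells at 0 h, Krt20 was 1411 (1293 to 1536) CPM in 34 cells at 6 h, 417 (386 to 449) in 133 cells at 15 h and 171 (160 to 183) in 247 cells at 24 h, while Krt7 was 1376, 1746 and 1578 CPM.

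Cells with Krt7 and cells with Krt20 overlapped in part at 24 h. After thinning, Krt20 was found in 35.5% of the 1044 cells with Krt7 and in 52.2% of the 1174 cells without it. Clu, a secreted chaperone used as a marker of regenerating cells, was found in 55.0% of cells with Krt7 and 29.3% of cells without it, and in 23.8% of cells with Krt20 and 55.4% of cells without it. Clu was also in 64.7% of the 300 cells with Krt23 and 37.7% of those without it. These are cells of 1 library, so the shares carry no test.

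In sorted Ki67-RFP-positive crypt cells, irradiation went with a higher level of 3 members, Krt18, Krt7 and Krt23. With 1 non-irradiated library there is no test. The rule asked that both irradiated libraries lie at least 2-fold away with intervals apart. On the higher side 8.60% of genes with a mean of at least 10 CPM met it, and 3 of 7 members did. Krt23 reached that mean only through its irradiated libraries, so its direction was set by reaching it and it adds nothing to the count. Krt4 did not reach it. Krt18 was 243 (237 to 249) CPM without irradiation and 1253 (1234 to 1272) and 1335 (1315 to 1356) CPM after it, 5.16 and 5.50 times as high. Krt7 was 51.4 (48.7 to 54.3) against 221 (213 to 229) and 255 (246 to 264) CPM, 4.29 and 4.96 times as high. Krt23 was 5.55 (4.68 to 6.54) against 63.5 (59.3 to 67.9) and 107 (101 to 113) CPM, 11.4 and 19.3 times as high. Krt8 (2164 against 2339 and 2740 CPM) and Krt19 (1877 against 1616 and 2121 CPM) did not differ by that rule. Krt20 was 65.5 against 36.1 and 80.9 CPM, on different sides in the 2 irradiated libraries, and Krt4 had 1, 2 and 3 UMIs.

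Krt18 changed far more than its partner in these cells. The UMI ratio of Krt8 to Krt18 was 8.91 in the non-irradiated library and 1.87 and 2.05 in the irradiated ones, and that of Krt7 to Krt8 was 0.0238 against 0.0943 and 0.0932. Thinned shares of cells went from 38.5% to 86.2 and 88.0% for Krt18, from 8.23% to 34.2 and 34.9% for Krt7, and from 1.08% to 11.8 and 16.5% for Krt23. Before thinning they went from 88.2% to 99.2 and 98.9%, from 43.0% to 86.9 and 81.7%, and from 6.34% to 52.7 and 57.8%. In 8 immune-like cells, which should lack keratins, the thinned shares were 0% for Krt18, Krt7 and Krt20, 12.5% (1 cell) for Krt23, 25% for Krt19 and 37.5% for Krt8, at a median of 6225 UMIs against 11969 to 14399 in whole libraries. Krt15 was 12.8 against 29.9 and 39.4 CPM. The regenerative marker sum was 3.06 against 485 and 639 CPM and the enterocyte sum 4503 against 913 and 2681 CPM. The Paneth sum was 3388 against 918 and 1154, the stem sum 2304 against 1429 and 943, the S phase sum 706 against 1027 and 886 and the squamous sum 198 against 240 and 256 CPM. The cells passed strainers of different pore size, and the part of these in the keratin values was not tested.

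Of 11 crypt clusters 6 came from 1 condition alone and another held 2 irradiated among 272 cells, so irradiation and cluster cannot be told apart in these 7. The other 4 held cells of both conditions, but only the goblet-like one had at least 20 cells in every library. This cluster, led by Fcgbp, Clca1 and Tff3, held 69 non-irradiated and 38 and 20 irradiated cells. In it Krt18 was 791 (730 to 855) against 1328 (1240 to 1421) and 1210 (1099 to 1329) CPM, and Krt7 was 186 (157 to 218) against 377 (331 to 428) and 519 (447 to 599) CPM. Krt23 was 6.40 (2.08 to 14.9) against 52.1 (35.9 to 73.2) and 52.5 (31.6 to 82.0) CPM. All 3 lay higher in both irradiated libraries with intervals apart, Krt18 by less than 2-fold. They were looked at because they were higher in the whole irradiated libraries, which hold these cells, so this is no separate support. The share of all genes that did so in this cluster was not taken. The non-irradiated goblet-like level of Krt18 was itself above the 243 CPM of the whole non-irradiated library. Krt20 reached 1893 CPM in an enterocyte-like cluster of 45 crypt cells, 3 of them non-irradiated and 9 and 33 from the 2 irradiated libraries.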

How the data were processed

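Bulk values are FPKM, deposited by the authors in 3 tables of 6 libraries, 1 per condition, with all 18 columns mapped to samples and 0 left unmapped. The submitters' processing notes name TopHat2 2.1.0, Cuffnorm and Cuffdiff 2.2.1, STAR 2.7.10a, STARsolo and Salmon 1.4, and the builds mm9, GRCm39 and mm39, without saying which served which assay. The sources used here do not give the read depth behind the FPKM. Single-cell values (PIPseq T2, per the labels) are the authors' expected counts of UMIs, in fractions where genes shared one, and the members' UMIs were whole for at least 99.8%. ATAC peaks were not used here.

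FPKM were tested within a table as log2(FPKM + 1) with limma 3.58.1 (trend, robust, R 4.3.3), over genes averaging 1 FPKM or more in the libraries fitted, two-sided, with Benjamini-Hochberg adjustment over all genes tested. The script was tested on simulated data. Interactions used 12 libraries; vehicle groups of separate tables were set side by side without a test. The labels do not say that replicates are separate cultures, so p-values measure the spread between these libraries, which may be technical. Cells needed 500 UMIs, 250 genes and no more than 20% mitochondrial UMIs, and were summed to CPM, thinned to 2000 UMIs for shares (3 cells of the 6 h library were left out), and clustered without keratins with scanpy 1.11.5 and leidenalg 0.10.2 at resolution 0.6. Intervals are exact, at 95%, by scipy 1.17.1, and cover counting error only.

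The 7 members were always named, with other keratins over 1 FPKM in any table, the 3 most correlated genes per member, and the largest called rise and fall of each list. The members, lists and rules were chosen with earlier results of these data known. Alternatives covered pseudocount, filter, scaling, samples fitted, replicate block, call rule, left-out replicates, cell filters, thinning and clustering.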

Additional observations from a re-analysis of the deposited data

Results flagged for a closer look

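The TGFB1 response of 5 members differed between irradiated and non-irradiated D7 organoids by limma's interaction test. On the log2 scale the irradiated response minus the non-irradiated one was -0.71 for Krt20, 0.34 for Krt23, 0.27 for Krt7, 0.20 for Krt18 and -0.13 for Krt19.

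The response of all 7 members differed between D11 and D7 irradiated organoids by the same test. The D11 response minus the D7 response was 5.29 for Krt4, -2.31 for Krt20, -1.78 for Krt18, -1.17 for Krt8, -0.92 for Krt23, -0.44 for Krt19 and -0.37 for Krt7. Among all genes 53.1% and 64.5% were called in these tests, and the day differences of Krt4, Krt20, Krt18 and Krt8 were of at least 2-fold. Krt4 passed the filter only through its D11 libraries with TGFB1, so its direction was set by passing.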

How the results depend on the processing

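All 6 members tested in each D7 comparison were called higher under every alternative run, with 6 called in each left-out-replicate fit and with the replicate block (6 and 6). At D11 5 members were called, 4 or 5 without 1 replicate, 4 with the replicate block, 7 with quantile normalization and 2 when at least a 2-fold change was required. For the irradiation interaction the count of 5 went to 4 or 5 without 1 replicate, 5 with the block, 4 with quantile normalization, 2 in a fit of all 18 libraries and 0 at 2-fold; for the day interaction 7 went to 5 to 7 without 1 replicate, 7 with the block, 5 with quantile normalization and 4 at 2-fold. The D11 and day counts include Krt4, whose direction was set by passing the filter of 1 FPKM. Asking for 2-fold cut the genes called to 956, 1484, 1574, 500 and 1880 in the 5 comparisons, by construction. The D11 fall of Krt20 was not called with the block (limma adjusted p = 0.0557). Quantile normalization turned the Krt18 irradiation term to -0.10 and the day terms of Krt7 and Krt19 to 0.13 and 0.24, and the cause was not tested. The log2 difference of D11 over D7 vehicle levels ran from -0.086 to 0.28 for Krt4 and from -0.13 to 0.046 for Krt8 when 1 replicate was left out. Same-numbered vehicle and TGFB1 libraries deviated together only weakly (r from -0.0856 to 0.213), so the numbers were not used as pairs. Counts of 5 and 3 members in the single-cell comparisons held under each cell filter. Thinning to 1000 UMIs lowered shares by construction, that of Krt7 at 24 h to 30.6%. Resolution 1.0 raised the highest cluster level of Krt7 to 2620 CPM. With 3 libraries per bulk group and 1 per time, no library effect can be separated from time in the single cells.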
